A study of Saccharomyces cerevisiae with 6 samples.

Results

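Budding yeast keeps several pairs of duplicated genes of which one copy serves aerobic growth and the other is known for use when oxygen is scarce. The 10 genes described here are 4 such pairs, CYC1 and CYC7, COX5A and COX5B, HYP2 and ANB1, and PET9 and AAC3, with the regulator genes HAP1 and ROX1. They were found by their open reading frame names among the 6256 gene probes of the array, and each of the 10 had 1 probe with 2 spots. The genes were chosen with earlier results of the same comparison of strains known, so their differences between strains are given as a description, without a test.

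The samples were total RNA of Saccharomyces cerevisiae, 3 of the mutant strain BH13, which has better resistance to coniferyl aldehyde, a phenolic inhibitor released from lignin, and 3 of its reference strain, called REF. Both strains were grown to log phase in yeast minimal medium with no treatment, and each sample was hybridised to its own one-colour Agilent yeast array. The labels name no other genotype, give no mating type and do not say whether BH13 is 1 clone or whether the replicates were started separately, so the spread between arrays may be partly technical.

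In this family of genes, heme serves as the signal of oxygen. Heme binds the activator Hap1, which turns on aerobic genes such as CYC1 and also ROX1, and Rox1 in turn represses hypoxic genes together with the corepressor Tup1-Cyc8. When heme falls, ROX1 is no longer activated and the hypoxic copies are released. CYC7 is also known as a stress-responsive gene. In the S288C laboratory strain HAP1 carries a Ty1 insertion that weakens its activity, and the labels do not give the HAP1 allele of the strains used here.

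Values are log2 signal relative to the 75th percentile of the same array, so that 0 means a signal equal to that percentile, and differences are BH13 minus REF in log2 with the standard error (SE) from limma, n = 3 arrays per strain. Signals of different probes cannot be compared as levels, because probes differ in how strongly they bind, but the change of a pair's ratio between strains can. The SE of such a change came from the variances of the 3 ratios of each strain and not from limma. All 10 probes were well above background on all 6 arrays, and none had an outlier or saturated spot. The number of arrays limits the precision. All BH13 arrays were on 1 slide, and REF replicates 1 and 2 shared another slide and REF replicate 3 had a slide of its own. The strains were scanned in different years, so the effects of strain, slide and scan cannot be told apart. The copies of a pair resemble each other in sequence, most of all ANB1 and HYP2, and how far a probe reads the RNA of the other copy was not tested. By limma with Benjamini-Hochberg adjustment, 81.3% of the 5890 genes tested differed between strains, 38% being higher and 43.3% lower in BH13.

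The hypoxic copy of all 4 pairs was higher in BH13, by amounts that ran from 1.87-fold to 253-fold. CYC7 had the largest increase of all 5890 genes tested and COX5B ranked 67, whereas AAC3 and ANB1 ranked 1004 and 1146. The aerobic copies had no common direction, CYC1 and COX5A being higher in BH13, PET9 lower and HYP2 without a settled sign, at 0.02 with the 75th percentile and -0.32 with quantile normalization. ROX1, the repressor gene, was higher in BH13 and HAP1, the activator gene, was lower. The 3 BH13 values did not overlap the 3 REF values for 9 of the 10 genes, 7 above and 2 below. Over all genes tested 83.7% did not overlap, 39.2% above and 44.6% below. CYC7, COX5B, AAC3 and CYC1, 4 of the 10, were at least 2-fold higher in BH13 and none was at least 2-fold lower, against 17.9% and 17.5% of all genes tested. Since the genes were chosen on this contrast, nothing is read from these counts.

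**Figure D1:**
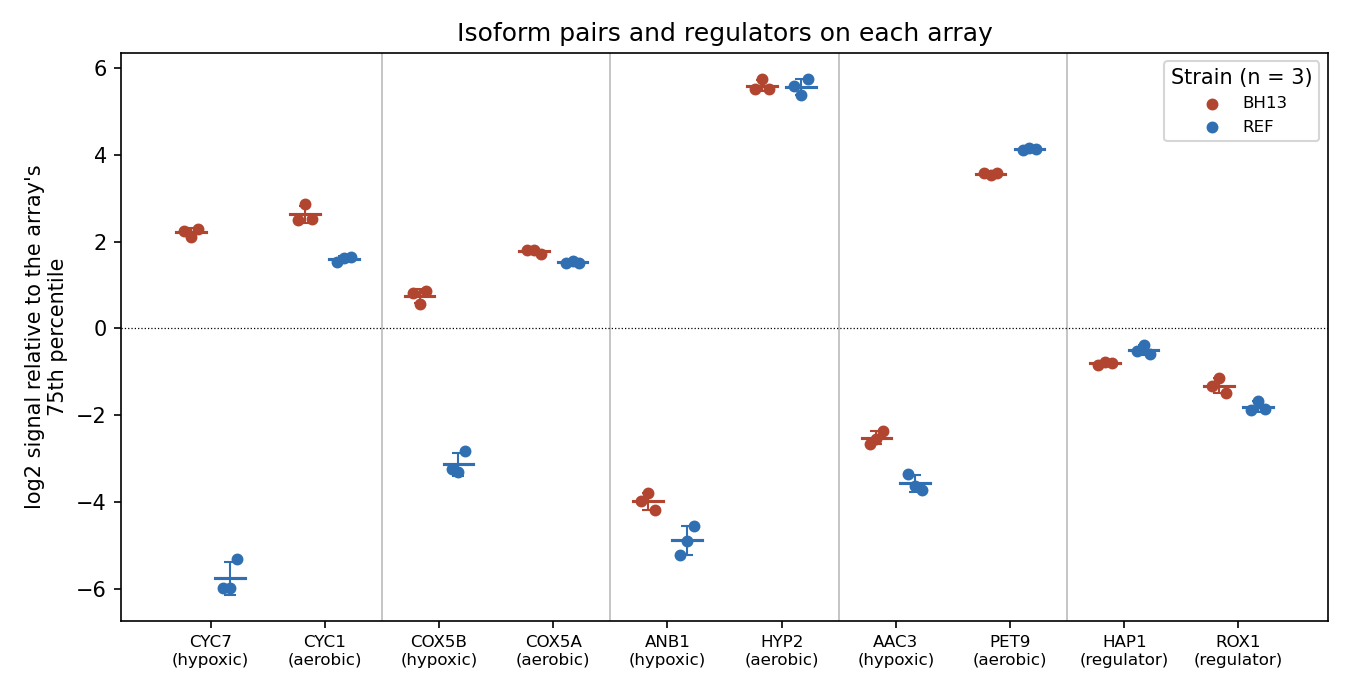
Log2 signal relative to the array's 75th percentile (y axis) for the 4 hypoxic and aerobic pairs and the 2 regulators (x axis), with 3 arrays of BH13 left of 3 arrays of REF; lines are means and bars 1 SD. CYC7 lies near 2.22 in BH13 and near -5.76 in REF, while the values of HYP2 overlap.

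CYC7 and CYC1 encode the 2 isoforms of cytochrome c, the soluble carrier that passes electrons from complex III to cytochrome oxidase. CYC7, the hypoxic isoform, had values of 2.25, 2.12 and 2.29 on the BH13 arrays, against -5.98, -5.98 and -5.32 on the REF arrays. The REF values came from 44.3 to 77.5 intensity units, where negative control spots averaged 2.60 to 3.74, and the BH13 values from 9980 to 13727 units. The difference was 7.98 ± 0.17, or 253-fold. CYC1, the aerobic isoform, had 2.51, 2.86 and 2.53 in BH13, against 1.52, 1.63 and 1.65 in REF. It was thus also higher in BH13, by 1.03 ± 0.11 or 2.04-fold, so both cytochrome c genes had more signal in the mutant. The CYC7 to CYC1 signal ratio shifted by 6.95 ± 0.26, which is 124-fold toward CYC7. Negative controls averaged 4.29 to 6.49 units on the BH13 arrays. CYC7 kept its direction under normexp background correction with a difference of 6.90, and its REF spots were dim.

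COX5B and COX5A encode alternative forms of subunit 5 of cytochrome oxidase, the enzyme that reduces oxygen, and the COX5B form is known for faster turnover of the enzyme. COX5B, the hypoxic form, had 0.81, 0.56 and 0.87 in BH13, against -3.25, -3.32 and -2.83 in REF. COX5A, the aerobic form, had 1.81, 1.81 and 1.72 in BH13, against 1.51, 1.55 and 1.52 in REF. Neither gene's strains overlapped, which held for 83.7% of all genes tested, but the sizes differed widely. COX5B was higher by 3.88 ± 0.14 or 14.7-fold, and COX5A by 0.26 ± 0.07 or 1.20-fold. The ratio of COX5B to COX5A shifted by 3.62 ± 0.20, or 12.3-fold. The small difference of COX5A moved with the scaling, between 0.17 with quantile and 0.39 with cyclic loess normalization, and stayed above 0.

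AAC3 and PET9 encode ADP/ATP carriers of the mitochondrial inner membrane, PET9 being the major aerobic carrier. AAC3, the hypoxic carrier, had -2.67, -2.54 and -2.37 in BH13, against -3.37, -3.63 and -3.73 in REF. PET9 had 3.58, 3.52 and 3.57 in BH13, against 4.11, 4.15 and 4.13 in REF. In this pair the copies went opposite ways. The strains did not overlap for either copy, as for 83.7% of all genes tested. AAC3 was higher in BH13 by 1.05 ± 0.12, or 2.07-fold, and PET9 was lower with a difference of -0.57 ± 0.07, which makes it 1.49-fold higher in REF. Together they shifted the ratio toward AAC3 by 1.62 ± 0.15, or 3.07-fold.

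ANB1 and HYP2 encode the hypoxic and the aerobic form of eIF5A, a translation factor that carries the modified amino acid hypusine. ANB1 had -3.98, -3.79 and -4.19 in BH13, against -5.22, -4.90 and -4.55 in REF. HYP2, among the bright probes of the array, had 5.52, 5.75 and 5.52 in BH13, against 5.58, 5.38 and 5.75 in REF. The lowest ANB1 value in BH13, on replicate 3, lay a little above the highest in REF, also on replicate 3, and the values of HYP2 were interleaved. ANB1 was higher in BH13 by 0.90 ± 0.17, or 1.87-fold, and HYP2 differed by 0.02 ± 0.11, a sign that turned with quantile normalization, at -0.32, and with normexp background correction, at -0.06. The ratio shifted toward ANB1 by 0.88 ± 0.18, or 1.84-fold. ANB1 was dim in both strains, with 127 to 183 intensity units in BH13 and 74.9 to 165 in REF before scaling, and its 2 spots differed by 1.71-fold on the array of REF replicate 1. Leaving out single arrays moved its difference between 0.74 and 1.07.

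**Figure D2:**
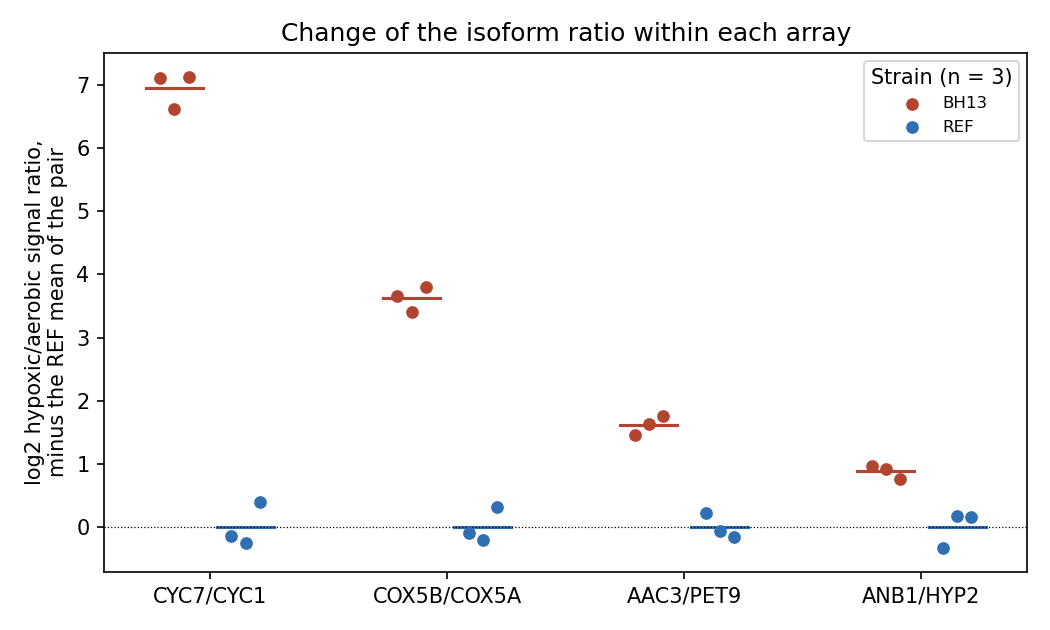
Log2 ratio of hypoxic to aerobic signal on each array, minus the mean of the 3 REF arrays (y axis), for the 4 pairs (x axis), BH13 left of REF; short lines are means of 3 arrays. The shift is 6.95 for CYC7/CYC1, 3.62 for COX5B/COX5A, 1.62 for AAC3/PET9 and 0.88 for ANB1/HYP2. BH13 and REF arrays do not overlap in any pair. Of single genes tested 83.7% did not overlap, and the share for ratios of 2 probes was not computed.

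Ordered by the size of the difference, the hypoxic genes ran CYC7, COX5B, AAC3 and ANB1. The gaps from CYC7 to COX5B and from COX5B to AAC3 were many times their SEs, whereas AAC3 and ANB1, at 1.05 ± 0.12 and 0.90 ± 0.17, differed from each other by less than the SE of ANB1. Among the REF arrays CYC7, COX5B and ANB1 were highest on replicate 3, the array on a slide of its own, while AAC3 was lowest there. The summed signal of 14 stress genes, described below, was also highest on that array, at 8.89 against 6.15 and 6.36 on the other REF arrays, and its part in these values was not tested. Without REF replicate 3 the differences were 8.20 for CYC7, 4.03 for COX5B and 1.07 for ANB1.

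The 2 regulator genes differed less between strains than any of the 4 hypoxic genes. ROX1, which encodes the heme-induced repressor of hypoxic genes, had -1.33, -1.13 and -1.49 in BH13, against -1.88, -1.67 and -1.86 in REF. HAP1 had -0.84, -0.77 and -0.80 in BH13, against -0.51, -0.39 and -0.60 in REF. Neither gene's strains overlapped, as for 83.7% of all genes tested. The difference was 0.48 ± 0.11 for ROX1, which is 1.40-fold higher in BH13, and -0.30 ± 0.08 for HAP1, which is 1.23-fold higher in REF. Over the 4 other scalings ROX1 ran from 0.48 to 0.58 and HAP1 from -0.33 to -0.23, so neither changed sign. These are RNA levels, and the arrays do not show the activity or the heme binding of either protein.

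**Figure D3:**
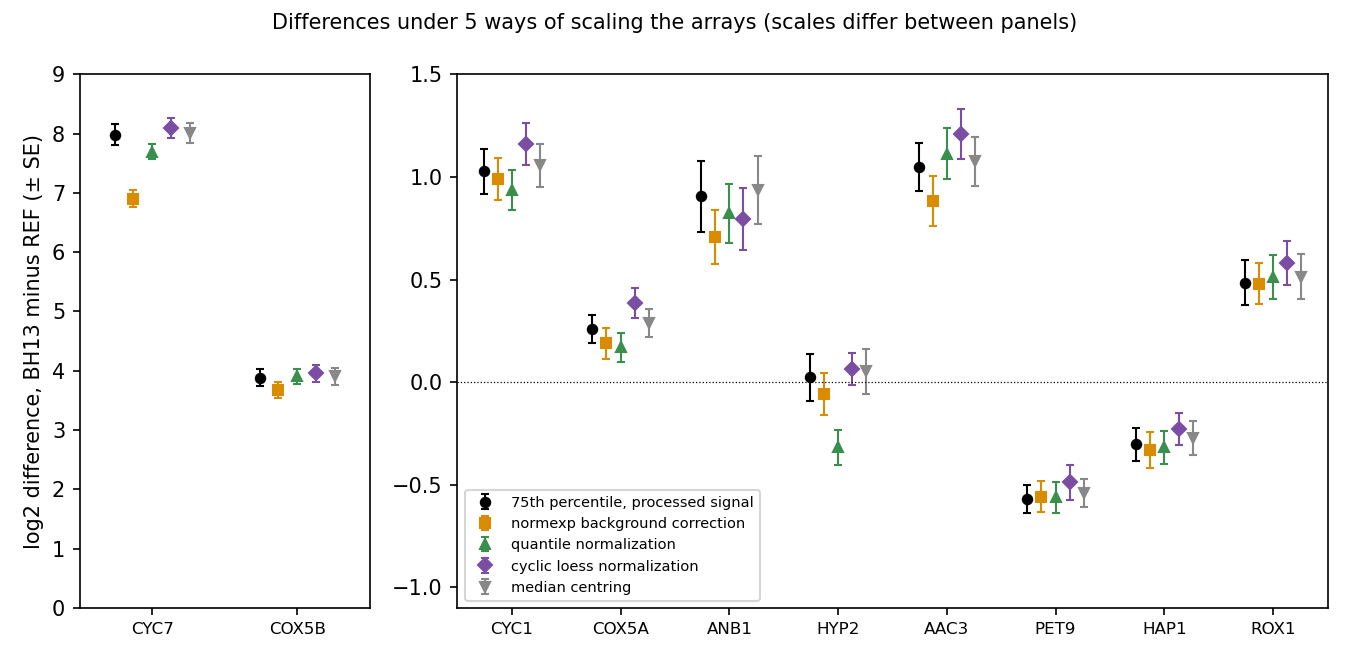
Log2 difference, BH13 minus REF, with the limma SE (y axis), for the 10 genes (x axis) under 5 ways of correcting and scaling the arrays; the panels have different y scales. CYC7 drops to 6.90 with normexp background correction, HYP2 lies at -0.32 with quantile normalization and 0.02 with the 75th percentile, and the other 9 genes keep their sign.

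The authors' deposited table holds 2 of the 10 genes, CYC7 and COX5B, as log2 values centred on the median of the 6 arrays. In the authors' deposited table CYC7 stands at 3.85, 3.66 and 3.89 for BH13 and at -4.10, -3.96 and -3.66 for REF. In the authors' deposited table COX5B stands at 1.998, 1.75 and 2.04 for BH13 and at -2.08, -2.12 and -1.75 for REF. The order of the strains and the higher value of REF replicate 3 are the same there as in the scanner values for both genes.

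Lists of genes around the pairs are given with their counts of calls by limma, beside which stand the shares over all genes tested, 38% higher and 43.3% lower in BH13, and their median difference of -0.07. Of 13 other regulators of oxygen-dependent genes, 4 were higher and 6 lower and the median was 0.13, and these counts lay near the shares over all genes. HAP4, the regulated subunit of the Hap2/3/4/5 activator of respiratory genes, rose by 1.43 ± 0.08 (limma adjusted p = 5.69e-07). MGA2, which encodes a membrane-bound activator of the fatty acid desaturase gene OLE1, rose by 0.90 ± 0.07, and ECM22, an activator gene of sterol synthesis, rose by 0.80 ± 0.08. HAP5, at 0.22 ± 0.08, was the other one called higher. HAP2 and HAP3, whose products belong to the same complex as those of HAP4 and HAP5, fell by 0.73 ± 0.10 and 0.54 ± 0.07 (limma adjusted p = 0.000145 and 0.00016). UPC2, which encodes the sterol-sensing activator of anaerobic uptake genes, fell by 1.40 ± 0.12 (limma adjusted p = 7.34e-06). The other genes called lower were MOT3, which encodes a repressor of hypoxic genes, at -0.78 ± 0.10, SUT1, at -0.64 ± 0.11, and IXR1, at -0.63 ± 0.13. The corepressor genes TUP1 and CYC8, at 0.16 ± 0.11 and 0.14 ± 0.07, and SPT23, at 0.13 ± 0.10, did not pass the test. The call for HAP5 ended when BH13 replicate 1 or 2 or REF replicate 2 or 3 was left out, at limma adjusted p of 0.0692, 0.105, 0.0972 and 0.0582. TUP1 was called without REF replicate 2 (limma adjusted p = 0.0234) and SPT23 without REF replicate 1 (limma adjusted p = 0.0377).

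Of 13 tested genes for the anaerobic cell wall, sterol uptake and related functions, 6 were lower and 2 higher in BH13, with a median of -0.11. The count of lower genes lay near the 43.3% of all genes tested, of which 38% were higher. TIR2, a cell wall mannoprotein gene, fell by 3.74 ± 0.11, and FET4, a low-affinity iron transporter gene, fell by 1.88 ± 0.09. AUS1, which encodes a sterol importer, fell by 1.35 ± 0.08 and TIR4 fell by 1.32 ± 0.18. EUG1 and PDR11 rose, by 0.57 ± 0.09 and 0.23 ± 0.09, and the call for PDR11 ended when any of 5 arrays was left out, at limma adjusted p from 0.0597 to 0.154 without BH13 replicate 1, 2 or 3 or REF replicate 1 or 3. DAN1 was well above background on 1 array and was not tested. The DAN and TIR genes belong to families of like sequence, and their probes may not tell the members apart.

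Of 9 heme genes, 3 were higher and 5 lower in BH13, with a median of -0.48, where 38% of all genes tested were higher and 43.3% lower. HEM13, which encodes the oxygen-requiring coproporphyrinogen oxidase and is a known target of Rox1, fell by 0.48 ± 0.09 (limma adjusted p = 0.00135). HEM12, the step before it, fell by 2.57 ± 0.12, HEM3 by 1.06 ± 0.09, HEM4 by 0.84 ± 0.10 and HEM1, the first enzyme of the pathway, by 0.60 ± 0.08. HEM14 rose by 1.08 ± 0.09, HMX1, the heme oxygenase gene, by 0.79 ± 0.08, and HEM15, the ferrochelatase gene, by 0.44 ± 0.08. HEM2 stood at -0.05 ± 0.08.

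Of 13 oxygen-linked sterol and lipid genes, 8 were lower and 2 higher in BH13, with a median of -0.55. Of all genes tested 43.3% were lower and 38% higher. ERG3, ERG25 and ERG1, which encode oxygen-using enzymes of ergosterol synthesis, fell by 1.55 ± 0.08, 1.44 ± 0.08 and 1.32 ± 0.08, and ERG26 rose by 1.27 ± 0.08. OLE1, the desaturase gene named above with MGA2, fell by 1.16 ± 0.13 (limma adjusted p = 3.84e-05). The list also holds an isoform pair of HMG-CoA reductase, in which HMG2, the form favoured at low oxygen, rose by 0.38 ± 0.10 and HMG1, the aerobic form, stood at -0.22 ± 0.11. HMG1 did not pass the test (limma adjusted p = 0.0863), but was called lower with quantile normalization and without REF replicate 3, in the second case at a difference of -0.31 (limma adjusted p = 0.0139). Of ARE1 and ARE2, also in the list, ARE2 fell by 0.95 ± 0.10 (limma adjusted p = 3.12e-05). ARE1, at 0.20 ± 0.10, did not pass the test (limma adjusted p = 0.0971). It was called higher with cyclic loess and without REF replicate 2 (limma adjusted p = 0.0285 and 0.0233).

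**Figure D4:**
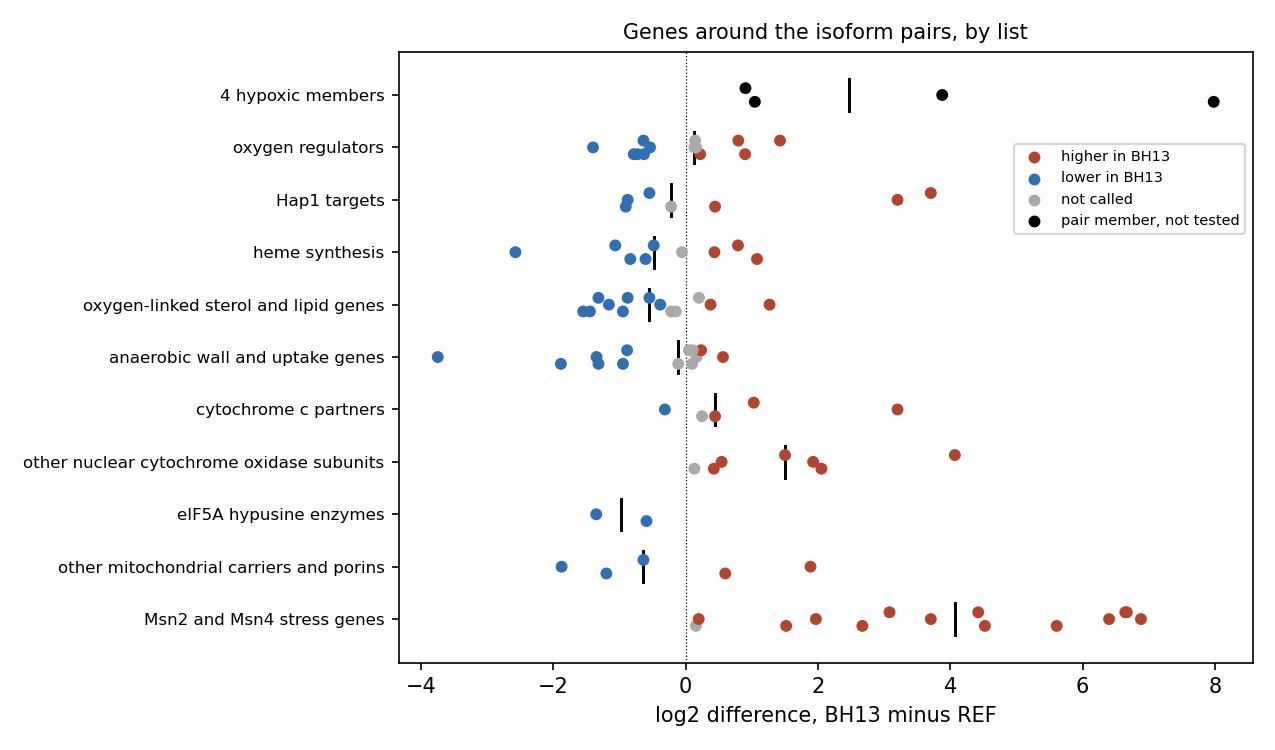
Log2 difference, BH13 minus REF (x axis), for the 4 hypoxic genes and for each tested gene of 10 lists (y axis); colours give the limma call and black bars the median of each row. The hypoxic genes reach 7.98 and the stress list has a median of 4.06. The eIF5A, carrier, sterol and heme lists have medians of -0.97, -0.64, -0.55 and -0.48.

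Of 7 known targets of Hap1 outside the pairs, 3 were higher in BH13 and 3 lower, near the 38% and 43.3% of all genes tested, and their median was -0.22. CTT1, the cytosolic catalase gene, rose by 3.71 ± 0.21, CYB2, which encodes the lactate dehydrogenase that reduces cytochrome c, by 3.20 ± 0.11, and CYT1, the cytochrome c1 gene, by 0.45 ± 0.08. YHB1, a flavohemoglobin gene, fell by 0.90 ± 0.07, ERG11 by 0.88 ± 0.07 and NCP1 by 0.55 ± 0.07. HMG1 is the seventh gene of that list. ERG11, NCP1 and HMG1 are also counted among the sterol and lipid genes, and CTT1 among the stress genes described below.

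Genes whose products work beside the isoforms were examined for each pair. Of 5 partners of cytochrome c, BH13 had 3 higher and 1 lower, the median being 0.45, where 38% and 43.3% of all genes tested were. Besides CYB2 and CYT1, CCP1, the cytochrome c peroxidase gene, rose by 1.03 ± 0.09 (limma adjusted p = 8.07e-06). CYC3, which encodes the lyase that attaches heme to apocytochrome c, fell by 0.31 ± 0.10, and its call ended without BH13 replicate 1 or 3 or REF replicate 1 or 2, at limma adjusted p from 0.0585 to 0.0809, and with cyclic loess, at 0.0528. CYC2, at 0.25 ± 0.12, did not pass, but was called without REF replicate 3 (limma adjusted p = 0.0192) and with cyclic loess, median centring and the intensity trend (limma adjusted p = 0.0292, 0.0475 and 0.0464).

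Of 7 other nuclear subunits of cytochrome oxidase, 6 were higher and none lower in BH13, with a median of 1.50. The shares over all genes tested were 38% higher and 43.3% lower. COX7 rose by 4.07 ± 0.13, COX13 by 2.05 ± 0.09, COX9 by 1.93 ± 0.09 and COX12 by 1.50 ± 0.15. COX6 and COX8 rose by 0.54 ± 0.08 and 0.43 ± 0.09. COX4, at 0.13 ± 0.09, was called only without REF replicate 3 (limma adjusted p = 0.0384) among the alternatives run. COX5B at 3.88 thus lay beside COX7 at the top of this range and COX5A at 0.26 toward its lower end.

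The eIF5A hypusine enzymes and other mitochondrial carriers were examined for the ANB1/HYP2 and AAC3/PET9 pairs. DYS1 and LIA1, which make the hypusine of eIF5A, fell by 0.59 ± 0.08 and 1.35 ± 0.12 (limma adjusted p = 0.00012 and 1.21e-05). Of 5 other mitochondrial carrier and porin genes, 2 were higher and 3 lower, where 38% and 43.3% of all genes tested were. PIC2 and MIR1, which both encode phosphate carriers of the inner membrane, moved in opposite directions. PIC2 rose by 1.89 ± 0.09 and MIR1 fell by 1.20 ± 0.08. POR1, the major porin gene of the outer membrane, rose by 0.60 ± 0.10, its minor paralog POR2 fell by 1.87 ± 0.13 and SAL1, another ADP/ATP transporter gene, fell by 0.64 ± 0.08.

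Markers of growth state and cell type also moved with strain. Of 14 general stress genes, which include MSN2 and MSN4 and known targets of the factors they encode, 13 were higher and none lower in BH13. Beside this and the counts below stand the 38% higher and 43.3% lower of all genes tested. The stress genes had a median of 4.06. Their summed signal was 109 to 116 times the array's 75th percentile in BH13, against 6.15 to 8.89 in REF. MSN2, at 0.16 ± 0.10, did not pass the test, but with normexp it was called higher at a limma adjusted p of 0.0398. MSN4, at 0.20 ± 0.07, was no longer called without BH13 replicate 1 or 3 or REF replicate 1 or 3, at limma adjusted p from 0.0613 to 0.117, nor with normexp, at 0.0576. The 7 a-cell genes and the 8 haploid-specific genes were called lower in BH13, but MFA1, MFA2, AGA2, FAR1 and HO were well above background on fewer than 3 BH13 arrays and passed the filter through the REF arrays, where they were high. With well above background required on all 6 arrays, 4 a-cell and 6 haploid-specific genes were tested and called lower. The a-cell genes summed to 0.28 to 0.29 in BH13 and 7.53 to 7.86 in REF, and the haploid-specific genes to 0.56 to 0.57 in BH13 and 7.28 to 7.41 in REF. These sums include MFA1, MFA2, AGA2, FAR1 and HO and were not made without them. In BH13, MFA2 and AGA2 of the a-cell list and HO of the haploid list were not well above background on any array. The part of growth state or cell type in the values of the pairs was not tested.

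CYC1 and ANB1 are neighbours on chromosome X, with no gene between them in the RefSeq table of assembly R64, and CYC7 and HYP2 lie on chromosome V with 4 genes between them. The neighbouring ANB1 and CYC1 had like differences of 0.90 and 1.03, although one is the hypoxic and the other the aerobic copy of its own pair. CYC7 and HYP2, at 7.98 and 0.02, differed widely, and under quantile normalization HYP2 was at -0.32. Next to CYC7, YEF1 rose by 1.55 ± 0.10 and UTR4 by 0.62 ± 0.08, and UTR2 fell by 0.69 ± 0.09 and RAD23 by 0.51 ± 0.07. Beside COX5B, SDP1 rose by 1.88 ± 0.18 and HPM1 fell by 1.17 ± 0.08, while HOS4 and SEC24, at -0.12 ± 0.07 and 0.12 ± 0.12, were not called. Beside AAC3, YBR085C-A rose by 3.50 ± 0.12, more than AAC3 itself differed. On the same stretch MIS1 and RPL19A fell by 1.17 ± 0.12 and 0.30 ± 0.11, and IST2, at 0.14 ± 0.07, was not called. Of 32 tested genes up to 2 places from one of the 10, 11 rose and 11 fell, where 38% and 43.3% of all genes tested did, and the median difference was -0.01.

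**Figure D5:**
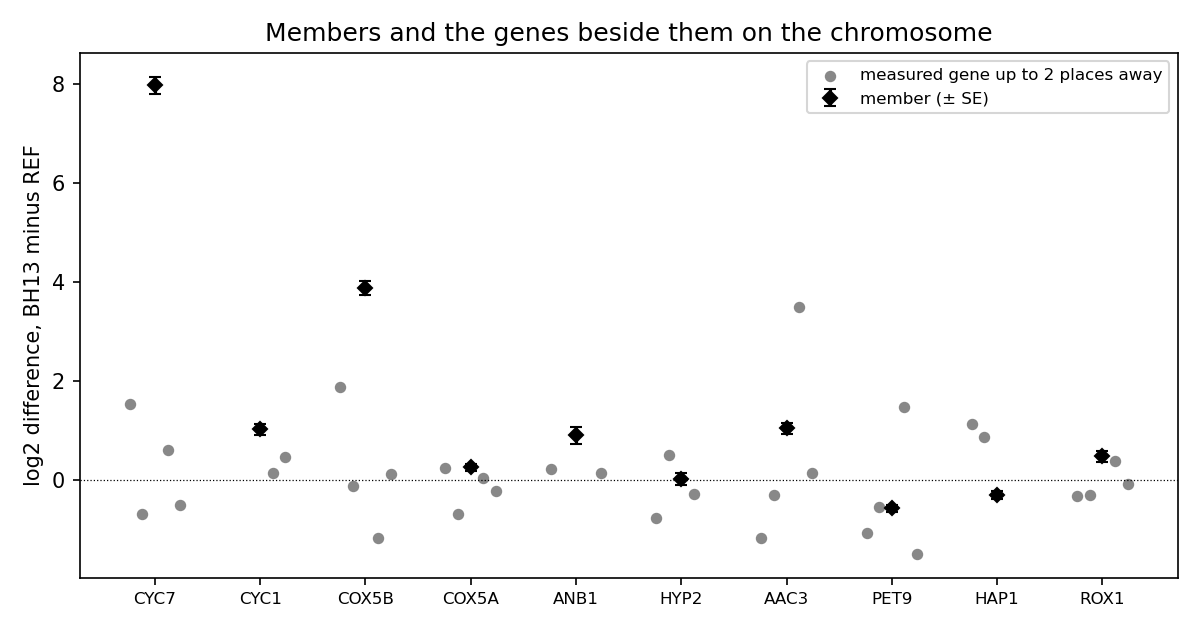
Log2 difference, BH13 minus REF (y axis), of each of the 10 genes with its limma SE (diamonds) and of the measured genes up to 2 places away on the chromosome (dots, in chromosome order; ANB1 and CYC1, which are neighbours, are shown only as diamonds). CYC7 at 7.98 stands beside neighbours between -0.69 and 1.55.

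Profiles most like each gene's were found by the root mean square distance over the 6 arrays between values centred on each gene's own mean. For CYC7 these were IME4 and EGO4, at distances of 0.29 and 0.42 log2 units and with increases of 7.62 ± 0.10 and 7.25 ± 0.29. For COX5B they were GPG1 and TKL2, at 0.08 and 0.09, with increases of 4.005 ± 0.13 and 3.88 ± 0.17. The nearest for ANB1 were RPL22B and JID1 and for AAC3 LPL1 and ADK2, all at 0.09 to 0.10. CYC1 was nearest to MIP6 and SPR6, COX5A to LGE1 and PMT5, HYP2 to YDR154C and FYV4, PET9 to YNL193W and VPH1, HAP1 to TAF7 and OST3, and ROX1 to HYR1 and RLM1, at distances from 0.02 to 0.06. Among the 10, CYC7 stood farthest from its nearest profiles. With 6 arrays of 2 strains a gene with a like difference between strains has a small distance whatever its function.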

How the data were processed

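Per the labels' protocols, Cy3-labelled cRNA of 6 samples was hybridised to one-colour Agilent arrays. The deposited scanner files hold a processed intensity for each spot, from which Feature Extraction had taken the background. The file headers give its version as 10.7.3.1, per the submitters' processing notes it was 9.1. The authors' deposited table holds log2 values of 1325 probes. How its probes were chosen and normalized was not stated in the labels. The BH13 columns have medians of -0.58, -0.53 and -0.55, and the REF columns 0.56, 0.60 and 0.52. Differences between strains in it had a slope of 1.00 against those from the scanner files, so scale and direction could be told. Row centring cancels in such differences. It was seen in the middle values, which were 3.66 and -3.66 for CYC7 and 1.75 and -1.75 for COX5B.

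After removal of control spots and feature outliers, log2 intensities of the 2 spots of each probe were averaged and scaled by subtracting the 75th percentile of gene spots on that array. Probes well above background (at least 1 of 2 spots) on at least 3 of 6 arrays were kept, which gave 5890 of 6256 genes. On each array 91.4% to 93.8% of gene spots were well above background. Names and neighbours come from the RefSeq gene table of R64, which matched 5756 probes. The comparison of strains used limma (3.58.1, R 4.3.3; lmFit, eBayes), with two-sided p-values adjusted by Benjamini-Hochberg over the kept genes and called under 0.05. These p-values set the difference between strains against the spread between samples of a strain, which may be technical. An exact permutation test of 3 arrays against 3 cannot give p below 0.1 and was not made. Figures were drawn with matplotlib 3.10.9. The gene test was tested on simulated data.

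The genes and lists were chosen with earlier results of these data known. The naming rule takes all 10 genes, up to 4 called genes with the largest differences per list, any gene of a list of up to 9, 2 nearest profiles and 2 neighbours per side. HAP2, HAP3, HAP5, MOT3, SUT1, IXR1, TUP1, CYC8, SPT23, EUG1, PDR11, DAN1, HMG2, ARE1, ARE2, OLE1, MSN2 and MSN4 were named after their values were seen. Alternatives were normexp correction with an offset of 50 on median signals, quantile, cyclic loess and median scaling, outliers kept, other filters on dim probes, an intensity trend with robust variance, a block for replicate number, a random block for slide, the authors' table, and each array left out. Same-numbered replicates did not deviate together in every pair, the correlations being 0.13, 0.24 and 0.0027, so they were not treated as pairs.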

Additional observations from a re-analysis of the deposited data

How the results depend on the processing

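The pair shifts kept their direction under every alternative run. The shift of CYC7/CYC1 was 5.91 with normexp background correction and that of ANB1/HYP2 1.14 with quantile normalization, the cause not being tested. Leaving out single arrays gave 6.83 to 7.15 for CYC7/CYC1, 3.51 to 3.77 for COX5B/COX5A, 0.71 to 0.97 for ANB1/HYP2 and 1.54 to 1.73 for AAC3/PET9, with 2136 to 2254 genes higher and 2405 to 2515 lower in BH13. In the full fit 2240 genes were higher and 2548 lower. Cyclic loess gave 2410 higher and 2393 lower. The authors' table gave 581 higher and 744 lower, so that every one of its 1325 probes was called. How those probes were chosen was not stated, so these counts cannot be set beside those of the full fit. No pair shift could be taken from the authors' table, as it holds no complete pair. With the replicate number as a block, 2270 genes were higher and 2576 lower. Samples share only a number, and not every array correlated best with its own number. Among list genes the block also ended the call for HAP5 (limma adjusted p = 0.0514) and MSN4 (limma adjusted p = 0.0545) and added HMG1 (limma adjusted p = 0.042) and ARE1 (limma adjusted p = 0.0486). Calls of list genes under the alternatives were mostly the same, in 1546 instances, with 24 lost, 18 gained and none reversed. The dim signals of ANB1, AAC3 and, in REF, CYC7 limit how well their sizes are known.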
